A study of Homo sapiens with 41 samples.

Results

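The comparison described here is A375 cells in culture after 48 h of vemurafenib against the same cells given vehicle, across all genes. Its libraries were chosen by their sample titles, 3 of each condition, and make up 6 of the 41 samples of the series. A375 is a human melanoma line whose growth depends on a mutant BRAF kinase, and vemurafenib (PLX4032) is an inhibitor of that kinase. Cells were seeded in medium with 10% serum, and the next morning the medium was replaced by medium with 2% serum that held vehicle or vemurafenib at 0.1 µM. The labels name no transgene or gene deletion for these cells, and RNA was taken from whole cells. The labels do not give the time at which the vehicle cells were harvested, so drug and time in culture cannot be told apart for the vehicle comparison. Nor do the labels say that the 3 replicates were separate cultures, so the spread behind each p-value may be technical. A further 3 libraries, from the same line after 6 h of vemurafenib at 0.1 µM, shared the table and the fit.

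BRAF is the kinase that passes a growth signal from RAS to MEK and ERK. Active ERK raises transcription of immediate early genes, of cyclin D1 and of its own inhibitors, the dual-specificity phosphatases and Sprouty proteins, so these transcripts are used as a readout of the pathway. In melanocytes and melanoma the same pathway is known to oppose the pigment cell programme that the transcription factor MITF drives, and its inhibition stops cells in G1.

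Values are read counts divided by a size factor per library and are called normalised counts. They are relative to the library, so a change in total RNA per cell leaves no trace in them, and fewer cells of one kind and less RNA per cell cannot be told apart. Differences are of log2(value + 1), a scale on which low genes appear to change less than they did. A gene was called higher or lower at a limma Benjamini-Hochberg adjusted p under 0.05. Depth ran from 9727827 to 12652985 reads in the 6 libraries. On the first principal component, 67.6% of the variance of the 9 culture libraries, the 48 h libraries lay at 72.2 to 81.4 and the vehicle libraries at -57.5 to -44.1. The libraries of a condition were not alike: 48 h replicate 1 stood apart from 48 h replicates 2 and 3, with a chi-square per degree of freedom of 25.5 and 30.1 against 5.82 between the latter, and vehicle replicates differed at 17.5 to 31.2. Counts of list members that moved by over 1.5 times without a library are given with and without it. Of 11 melanocyte lineage markers, 9 reached a mean of 10: SOX10 had normalised counts of 8916, 10858 and 8722 in vehicle and 10899.6, 9803 and 8881 at 48 h, while MLANA stayed at 0.941 to 23.8 and TYR at 0 to 2.07 in the 6 libraries and DCT was at 2.17 to 3.15 in vehicle and 2539 to 3636 at 48 h. CSPG4, a surface proteoglycan of melanoma, was at 10350 to 18471 in vehicle and 2800 to 3895 at 48 h. A375 here was thus positive for SOX10, with low levels of MLANA and TYR. Markers of other cell types were low in part: 12 of 14 leukocyte markers were under the mean of 10 and CD2 was at 0 in every library. Of 12 keratinocyte markers 4 were at 0 in all 6 libraries, while KRT18, KRT8, KRT10 and KRT14 were expressed. KRT10 was at 762 to 1087 in vehicle and 652 to 802 at 48 h, and KRT14 at 36.9 to 182 and 23.8 to 43.8. The keratinocyte markers summed to 4082 to 5285 in vehicle and 1938 to 2419 at 48 h, mainly through KRT18 (2321, 2554 and 3168 and 733, 989 and 706), and the part of these markers in the results was not tested.

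Of 23368 genes listed, 13816 had a mean of at least 10 and were tested. At 48 h, 3361 were higher (24.3% of those tested) and 3542 lower (25.6%), 50.0% in all, around a median log2 difference of -0.0032. These shares, 24.3% higher and 25.6% lower, are the background for each count of list members below. When libraries were scaled to their totals instead, the median moved by 0.134 and the calls became 4218 higher and 2870 lower, so 59.5% of calls were higher against 48.7% as deposited. At least 2-fold differences were 1701 higher (12.3%) and 1506 lower (10.9%). Every 48 h library lay above every vehicle library for 28.8% of genes and below for 30.2%.

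**Figure D1:**
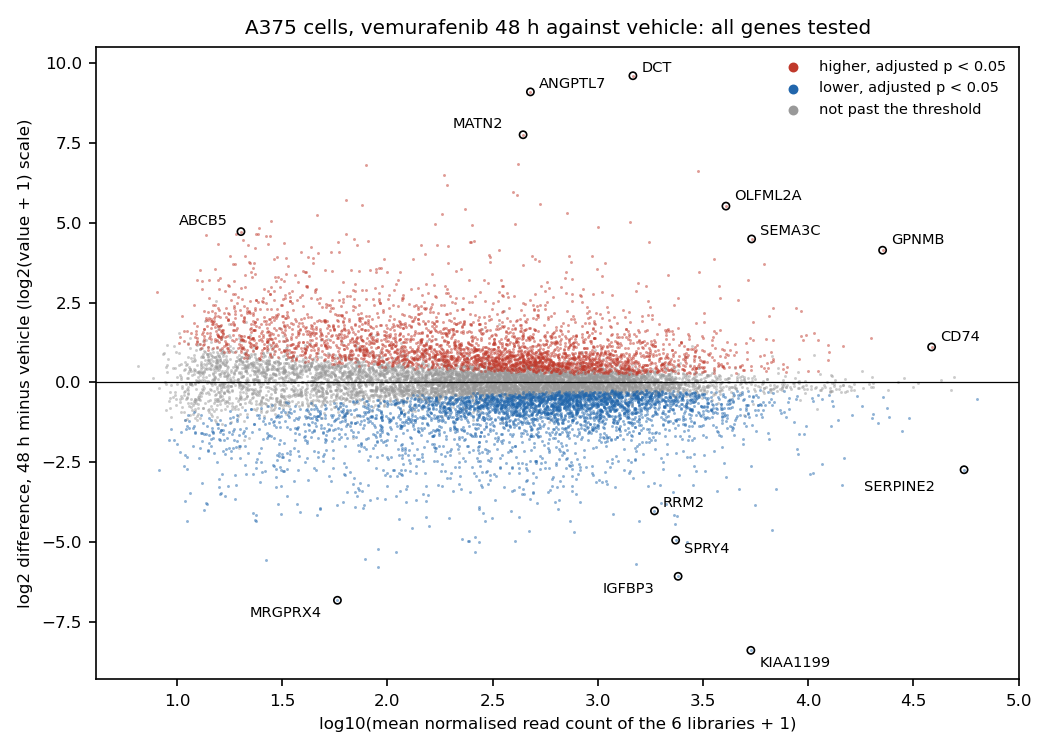
Log2 difference between 48 h and vehicle (y axis, log2(value + 1) scale) against the log10 mean normalised count of the 6 libraries (x axis) for the 13816 genes tested, 1 point per gene, coloured by the limma call. DCT at 9.61 and KIAA1199 at -8.40 are the extremes, and changed genes lie at every level of expression.

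Several of the largest rises began from almost nothing. ANGPTL7, a secreted protein of the angiopoietin-like family, had 3 reads in the vehicle libraries together and 3073 at 48 h, a ratio of 976 with a 95% counting interval of 334 to 4740. The normalised counts were 3.15, 0 and 0 in vehicle and 1472, 598 and 788 at 48 h, so every treated library was high and 48 h replicate 1 the highest. ABCB5, a membrane transporter studied as a marker of melanoma subpopulations, was at 0 in all 3 vehicle libraries and at 4.96, 57.8 and 51.9 at 48 h, at least 37.3-fold higher against a floor of 3 reads over the vehicle group, with a lower 95% counting limit of 27.7-fold when no floor is set. Its rise was small in 48 h replicate 1, where it stayed at 4.96.

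Other large rises started from low or moderate levels. OLFML2A, an extracellular olfactomedin-domain protein, went from 203, 185 and 104 in vehicle to 12451, 4484 and 6946 at 48 h. The groups were far apart, with a 48.6-fold ratio of means (log2 difference 5.53 ± 0.36 SE, limma adjusted p = 2.57e-06). PCSK2, a convertase that cuts prohormones and under 10 in each vehicle library, rose from 7.35, 4.34 and 5.65 to 1315, 623 and 549.9 (log2 difference 6.85 ± 0.56 SE, limma adjusted p = 8.96e-06). P2RX7, an ATP-gated ion channel, rose from 6.30, 21.7 and 15.1 to 725, 762 and 949.7 (log2 difference 5.87 ± 0.36 SE, limma adjusted p = 1.89e-06), evenly across the treated libraries. PRELP, a leucine-rich proteoglycan of basement membranes, had 17.8, 20.6 and 21.6 in vehicle and 818, 971 and 1338 at 48 h (log2 difference 5.61 ± 0.23 SE, limma adjusted p = 2.55e-07), again without overlap.

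In the other direction the largest fall was that of KIAA1199, the file's symbol for a secreted protein that takes part in hyaluronan breakdown. Its normalised counts were 4865, 15125 and 11940.2 in vehicle, where the libraries differed among themselves, and 33.9, 25.8 and 23.2 at 48 h, 385-fold lower on the ratio of means (log2 difference -8.40 ± 0.34 SE, limma adjusted p = 2.55e-07). MRGPRX4, a G protein-coupled receptor known from itch neurons, was at 105, 105 and 131 in vehicle and at 0 in all 3 treated libraries, at least 115-fold lower against a floor of 3 reads over the 48 h group, with a lower 95% counting limit of 95.1-fold when no floor is set. NOX4, an oxidase that makes hydrogen peroxide, fell from 249, 604 and 568 to 11.6, 11.4 and 16.6 (log2 difference -4.98 ± 0.31 SE, limma adjusted p = 2.03e-06). RAMP1, the partner of the calcitonin receptor-like receptor, fell from 532, 873 and 927 to 14.9, 30.98 and 26.5 (log2 difference -4.97 ± 0.31 SE, limma adjusted p = 2.03e-06). SERPINE2, a secreted protease inhibitor and among the most abundant transcripts of the vehicle cells, fell from 70685, 104128 and 113210 to 15173, 13135 and 14003 (log2 difference -2.74 ± 0.18 SE, limma adjusted p = 2.45e-06).

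Among the outputs of ERK itself, 24 of 25 members tested were lower, against 25.6% of all genes, with a median log2 difference of -2.47. EGR1, an immediate early zinc finger factor, fell from 762, 433 and 336 to 13.2, 35.1 and 55.2 (log2 difference -3.97 ± 0.51 SE, limma adjusted p = 0.000126). IER3, a stress and survival gene, fell from 4106, 3707 and 4677 to 458, 330.4 and 358. PHLDA1, another early gene, fell from 12942, 12230.1 and 15511 to 2679.6, 5219.98 and 5935, a smaller difference of -1.63 ± 0.25. SPRED1, an inhibitor that acts between RAS and RAF, was the member not called: its normalised counts of 1419, 1419.8 and 1016 and 1447, 1219 and 1334 overlapped. DUSP6, the cytoplasmic ERK phosphatase, had 4061, 2089 and 2229 in vehicle, 275, 445 and 505 at 6 h and 707, 827 and 772 at 48 h. It was lower than vehicle at 48 h (log2 difference -1.79 ± 0.27 SE, limma adjusted p = 0.000303) and higher than at 6 h (log2 difference 0.95 ± 0.27 SE, limma adjusted p = 0.016), with all 48 h libraries above all 6 h libraries. EGR1 at 6 h was 17.7, 32.9 and 49.1 and overlapped the 48 h values.

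The cascade that carries the signal moved less. Of 25 members, 4 were higher (16%) and 8 lower (32%), against 24.3% and 25.6% of all genes. The RAF kinases BRAF and ARAF were not called, with 158, 183 and 133 and 184, 140.4 and 178 for BRAF, whose groups overlapped. MAP2K1, which encodes MEK1, fell from 1139, 1243 and 1382 to 689, 863 and 907 (log2 difference -0.62 ± 0.15 SE, limma adjusted p = 0.0052). The ERK-activated kinase genes RPS6KA1, RPS6KA2 and RPS6KA3 were all lower, RPS6KA1 from 1295, 1170.3 and 1301 to 399, 612 and 618 (log2 difference -1.23 ± 0.18 SE, limma adjusted p = 0.000291). GAB1 and GAB2, the docking proteins that link receptors to RAS and PI3K, rose, GAB1 from 135, 125 and 73.4 to 771, 350.1 and 359.99 (log2 difference 2.09 ± 0.34 SE, limma adjusted p = 0.000556) and GAB2 from 340.1, 449 and 382 to 1331, 1539 and 1388 (log2 difference 1.87 ± 0.13 SE, limma adjusted p = 4e-06). The count of higher members was 2 without vehicle replicate 3, without 48 h replicate 2 or without 48 h replicate 3, and 7 with scaling to totals.

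AP-1 is a family of dimers that bind DNA downstream of ERK and of the stress kinase JNK. Of 11 genes for its subunits, 7 were lower (63.6%) and 3 higher (27.3%), against 25.6% and 24.3% of all genes. FOSL1 fell from 2586, 1755 and 2222 to 209, 223 and 225 (log2 difference -3.30 ± 0.35 SE, limma adjusted p = 3.93e-05). FOSB fell from 291, 225 and 199 to 21.5, 40.3 and 38.6. ATF3 rose from 52.5, 49.9 and 155 to 641, 482 and 719 (log2 difference 3.01 ± 0.47 SE, limma adjusted p = 0.0004). FOSL2 rose from 206, 146 and 147 to 298, 297 and 373 (log2 difference 0.96 ± 0.20 SE, limma adjusted p = 0.00254), and the third riser was JUN. JUND was not called. In the MYC network, MYC fell from 239, 394 and 395 to 42.2, 151 and 73.99 (log2 difference -2.09 ± 0.40 SE, limma adjusted p = 0.00155), while the MAX partners that oppose it divided: MXI1 rose from 733, 1019.5 and 752 to 2357, 2939 and 2419 and MXD4 from 377, 495 and 440.4 to 1268, 1299 and 1165, and MXD3, which is known from dividing cells, fell from 1555, 1249 and 1582 to 773, 944 and 896. MXD1 was called lower as well.

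Genes of the cell cycle fell with few exceptions. All 36 members tested for DNA replication and nucleotide synthesis and all 35 for mitosis were lower, with medians of -2.05 and -2.77, as were 14 of 19 in the E2F and retinoblastoma family. E2F1, the activator of S-phase genes, fell from 1007, 555 and 618 to 35.6, 47.5 and 44.2 (log2 difference -4.03 ± 0.27 SE, limma adjusted p = 2.67e-06). UHRF1, which guides maintenance DNA methylation, fell from 1275, 712 and 667 to 62.9, 66.1 and 71.8. LMNB1, the lamin whose loss marks arrested cells, fell from 3387, 2343 and 2139.7 to 294, 322 and 350.1 (log2 difference -3.00 ± 0.21 SE, limma adjusted p = 3.35e-06). RBL2, the retinoblastoma relative of resting cells, was the 1 member of its family that rose, from 922, 1229 and 995 to 1614, 1451 and 1476 (log2 difference 0.54 ± 0.14 SE, limma adjusted p = 0.00737). RBL1 fell from 485, 338 and 291 to 104, 98.1 and 155. DNA repair genes were lower in 26 of 32 cases.

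Promoter sequence was set beside the replication and mitosis lists, because many cell cycle promoters are known to carry E2F sites in S-phase genes and the CHR element with CCAAT boxes in mitotic genes. The 250 bases before the start were taken from RefSeq (GRCh38.p14) for the 9662 tested genes that had an entry, and each motif was searched on both strands. The CHR element, TTTGAA, was in 16 of 30 mitotic promoters (53.3%), in 13.6% of all 27195 promoters and in 8.41% of the 9662 of tested genes. CCAAT was in 22 of 30 (73.3%), against 33.0% of all and 35.4% of those of tested genes. TTTCCCGC, an E2F site, was in 8 of 31 replication promoters (25.8%), against 1.42% of all and 2.17% of those of tested genes. Short motifs match often and a match is a description of the letters, not evidence of a bound site. Shown are the promoter of MKI67, the proliferation antigen Ki-67, with its CHR and CCAAT matches in capitals, and that of GINS2, a subunit of the replicative helicase, with its E2F match in capitals. Each is the called member with the largest difference among those that held every motif searched for in its list.
MKI67 (chr10:128126424-128126673, minus strand): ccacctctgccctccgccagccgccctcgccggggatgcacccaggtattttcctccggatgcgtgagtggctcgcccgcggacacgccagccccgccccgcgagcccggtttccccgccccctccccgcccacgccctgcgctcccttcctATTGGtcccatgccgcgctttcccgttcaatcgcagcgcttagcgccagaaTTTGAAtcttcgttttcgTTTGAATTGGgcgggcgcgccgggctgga
GINS2 (chr16:85688955-85689204, minus strand): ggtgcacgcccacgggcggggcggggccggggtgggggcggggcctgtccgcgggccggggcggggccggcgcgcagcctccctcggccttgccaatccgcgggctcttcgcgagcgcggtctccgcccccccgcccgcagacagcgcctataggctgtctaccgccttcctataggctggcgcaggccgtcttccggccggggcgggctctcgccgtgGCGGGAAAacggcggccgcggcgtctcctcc
In MKI67 the CHR matches begin 47 and 29 bases before the start and the CCAAT matches 98 and 24 bases before it, the last of each overlapping. The E2F match of GINS2 begins 31 bases before the start and reads on the opposite strand. GINS2 had normalised counts of 562, 369 and 469 in vehicle and 44.7, 77.4 and 60.7 at 48 h (log2 difference -2.93 ± 0.23 SE, limma adjusted p = 6.85e-06), and the highest treated library was far under the lowest vehicle library.

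The inhibitors of cyclin-dependent kinases did not move as a group. CDKN2C, an INK4-type inhibitor of CDK4 and CDK6, rose from 1075, 633 and 628 to 2914, 1752 and 1909 (log2 difference 1.50 ± 0.25 SE, limma adjusted p = 0.000594). CDKN1B, which encodes p27, was not called at 1012, 1094 and 1075 and 977, 960.4 and 891. CDKN1A, which encodes p21, was at 1444, 1613 and 4268 in vehicle and 1569.7, 2054 and 4333 at 48 h: replicate 3 was the high library in both conditions, and the groups overlapped. Of the kinases, CDK2 fell from 1441, 1249 and 1517 to 337, 406 and 454 (log2 difference -1.82 ± 0.14 SE, limma adjusted p = 7.06e-06). CDK6 fell from 1961, 1606 and 1353 to 842, 886 and 1176, whereas CDK4 was not called. Of 22 p53 targets tested, 10 were higher (45.5%) and 2 lower (9.09%), against 24.3% and 25.6% of all genes. TP53INP1, an autophagy and death regulator, rose from 88.2, 126 and 157 to 533, 485 and 599.6 (log2 difference 2.15 ± 0.24 SE, limma adjusted p = 4.91e-05). CCNG1 rose from 2363, 2642 and 2643 to 5595, 4995 and 5118. TP53I3 rose from 468, 386 and 581 to 1284, 1228 and 1469. MDM2, the p53 ubiquitin ligase, overlapped between the groups at 1685, 1651 and 2379.6 and 1716, 1443 and 2255.

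Genes for making and folding protein fell too, by less. Ribosome biogenesis genes were lower in 30 of 30 cases with a median of -1.03, among them NCL, the nucleolar protein nucleolin, at 14574, 10988 and 10697 in vehicle and 5286, 5236 and 4666 at 48 h, and LYAR, a nucleolar regulator, at 1126, 919 and 987 and 226, 268 and 251 (log2 difference -2.02 ± 0.13 SE, limma adjusted p = 2.65e-06). The proteins of the ribosome itself differed from this: 5 of 44 were lower, with a median of -0.17 as deposited that became 0.012 with quantile normalisation. The count was 2 without 48 h replicate 1 and 1 without vehicle replicate 3. Higher calls numbered 0 by limma, edgeR and DESeq2, and 0 at an unadjusted limma p under 0.05. RPS6 had 43988, 53112 and 57524 in vehicle and 40353, 48324 and 42078 at 48 h, which overlapped.

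Chaperones are proteins that help others fold, and the ring-shaped chaperonin TRiC folds actin and tubulin. In the heat shock and chaperonin list 23 of 31 were lower and 2 higher, with a median of -0.87. The TRiC subunits tested, TCP1, CCT2, CCT3, CCT4, CCT5, CCT6A, CCT7 and CCT8, were all lower: TCP1 fell from 4295, 3573 and 3857 to 1417, 1588 and 1569 (log2 difference -1.36 ± 0.12 SE, limma adjusted p = 1.55e-05). CCT5 fell from 8680.02, 7191 and 7553 to 2778, 3416 and 2978 (log2 difference -1.35 ± 0.12 SE, limma adjusted p = 1.26e-05). So were the mitochondrial pair HSPD1 and HSPE1, HSPD1 from 7229.5, 5696 and 6031 to 2248, 2744 and 2639. CRYAB, a small heat shock protein of lens and muscle, rose from 8.40, 10.8 and 10.4 to 47.1, 35.1 and 62.9 (log2 difference 2.15 ± 0.40 SE, limma adjusted p = 0.00128), and the other higher member was DNAJB4. Without 48 h replicate 1 the higher members were 4.

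The proteasome, which degrades tagged proteins, split by subunit type. Of 38 members 32 were lower, and the 3 that were higher, PSMB8, PSMB9 and PSMB10, are the catalytic subunits that replace the standard ones in the immunoproteasome, the form that cuts peptides for antigen presentation. PSMD14, a deubiquitinase of the lid, fell from 1856, 1527 and 1825 to 575, 817 and 764 (log2 difference -1.28 ± 0.15 SE, limma adjusted p = 5.75e-05). PSMC3, an ATPase of the base, fell from 2819, 1986 and 2527 to 1059, 1269 and 1159 (log2 difference -1.06 ± 0.14 SE, limma adjusted p = 0.000131). The standard catalytic subunits PSMB5, PSMB6 and PSMB7 were lower by -0.46 ± 0.13, -0.66 ± 0.14 and -0.58 ± 0.14 on the log2 scale. PSMB10 rose from 369, 321 and 391 to 773, 913 and 864 (log2 difference 1.24 ± 0.15 SE, limma adjusted p = 9.05e-05). PSMB9 rose from 111, 158 and 172 to 261, 299 and 271 (log2 difference 0.93 ± 0.19 SE, limma adjusted p = 0.00212). PSMB8 rose from 524, 528 and 597 to 664, 889 and 852 (log2 difference 0.54 ± 0.13 SE, limma adjusted p = 0.00608), each without overlap. In the 6 h libraries PSMB10 had 302, 409 and 414, and the 48 h libraries were above them (log2 difference 1.19 ± 0.15 SE, limma adjusted p = 0.000196).

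Antigen presentation genes rose on both arms. MHC class I molecules show peptides from inside the cell to CD8 T cells, and class II molecules, normally made by immune cells but also by many melanomas, show peptides to CD4 T cells. Of 16 class I genes tested 14 were higher and 2 lower, and of 14 class II genes 14 were higher, against 24.3% of all genes, with medians of 0.83 and 1.32. Since HLA genes are alike in sequence, reads may have been shared among them by the counting, and single HLA values are uncertain.

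CD74, the class II invariant chain, was already abundant in vehicle at 23638, 24261 and 25305 and rose to 47625, 58195 and 52547 (log2 difference 1.11 ± 0.13 SE, limma adjusted p = 7.37e-05). HLA-DRA, the class II alpha chain, rose from 7796, 6257 and 5284 to 18496, 14750.2 and 14501 (log2 difference 1.31 ± 0.18 SE, limma adjusted p = 0.000189). HLA-DMA, which loads peptide, rose from 958, 832 and 823 to 2031, 2082 and 2052. All treated libraries lay above all vehicle libraries for these 3 genes. CIITA, the coactivator on which class II transcription depends, was at 915, 588 and 449.8 in vehicle and 1658, 849 and 926 at 48 h, groups that overlapped, and its call (adjusted p = 0.0411 by limma) was lost without vehicle replicate 2, vehicle replicate 3 or 48 h replicate 1, at limma adjusted p-values of 0.103, 0.146 and 0.15. On the class I arm, B2M, the light chain, rose from 8165, 8225 and 9404 to 14664, 17814 and 16970.4 (log2 difference 0.94 ± 0.12 SE, limma adjusted p = 9.79e-05). HLA-E rose from 2049, 1661 and 1741 to 4571, 3982 and 3757. ERAP1, which trims peptides, rose from 1145, 1407 and 1257 to 3814, 2831 and 3124 (log2 difference 1.35 ± 0.13 SE, limma adjusted p = 1.93e-05). TAP1, a subunit of the peptide pump, rose from 558, 546 and 645 to 879.98, 976 and 993. TAP2, its partner, fell to 909, 832 and 843 from 1363, 999 and 1139, and CD274, which encodes the checkpoint ligand PD-L1, from 27.3, 37.96 and 27.3 to 12.4, 11.4 and 20.98. Neither call held throughout: that of TAP2 (adjusted p = 0.0461 by limma) reached 0.162 without vehicle replicate 1 and was lost in 8 of 17 alternatives, and that of CD274 (0.0144) reached 0.0569 without 48 h replicate 2 and 0.0526 without vehicle replicate 2.

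Leukocytes carry class II genes as well. Leukocyte markers summed to 483 to 1099 in vehicle and 965 to 1642 at 48 h, nearly all of it CD68, a lysosomal protein that other cells also make, and LYZ. CD3E, CD79A, CD2, ITGAM and TYROBP were at 0 to 2.10 in each of the 6 libraries. PTPRC, the common leukocyte antigen, was at 0 to 1.08 in vehicle and 10.8 to 17.6 at 48 h. CSF1R, also on the list, had 1.05, 0 and 2.82 in vehicle and 8.27, 5.16 and 13.3 at 48 h. FCER1G went the other way, from 3.15, 2.17 and 13.2 to 0.827, 1.03 and 1.10. CD14, LAPTM5 and NKG7 overlapped between the groups. PTPRC, CSF1R and FCER1G were too low to be tested, and the part of leukocyte markers in the class II result was not tested.

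Interferon-stimulated genes, which cells switch on when they sense interferon, were higher in 27 of 36 tested, with a median of 1.23. Lower calls numbered 0 by limma, edgeR and DESeq2 and 0 at an unadjusted limma p under 0.05, and 1 without 48 h replicate 2. DDX58, the RNA sensor RIG-I, rose from 40.9, 44.5 and 53.6 to 212, 245 and 233 (log2 difference 2.29 ± 0.18 SE, limma adjusted p = 5.97e-06). IFIT2, an antiviral effector, rose from 71.4, 81.3 and 85.6 to 342, 283 and 314 (log2 difference 1.96 ± 0.18 SE, limma adjusted p = 1.48e-05). IRF9 rose from 122, 127 and 104 to 428, 439.9 and 401 (log2 difference 1.84 ± 0.14 SE, limma adjusted p = 6.5e-06). All 3 had separate groups. Neither ISG15, at 45.1, 79.2 and 153 and 126, 292 and 222, nor IRF1, at 148, 123 and 125 and 184, 166 and 125, was called. IFIT2 had 89.4, 123 and 121 at 6 h and was higher at 48 h than then (log2 difference 1.49 ± 0.18 SE, limma adjusted p = 0.000128).

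**Figure D2:**
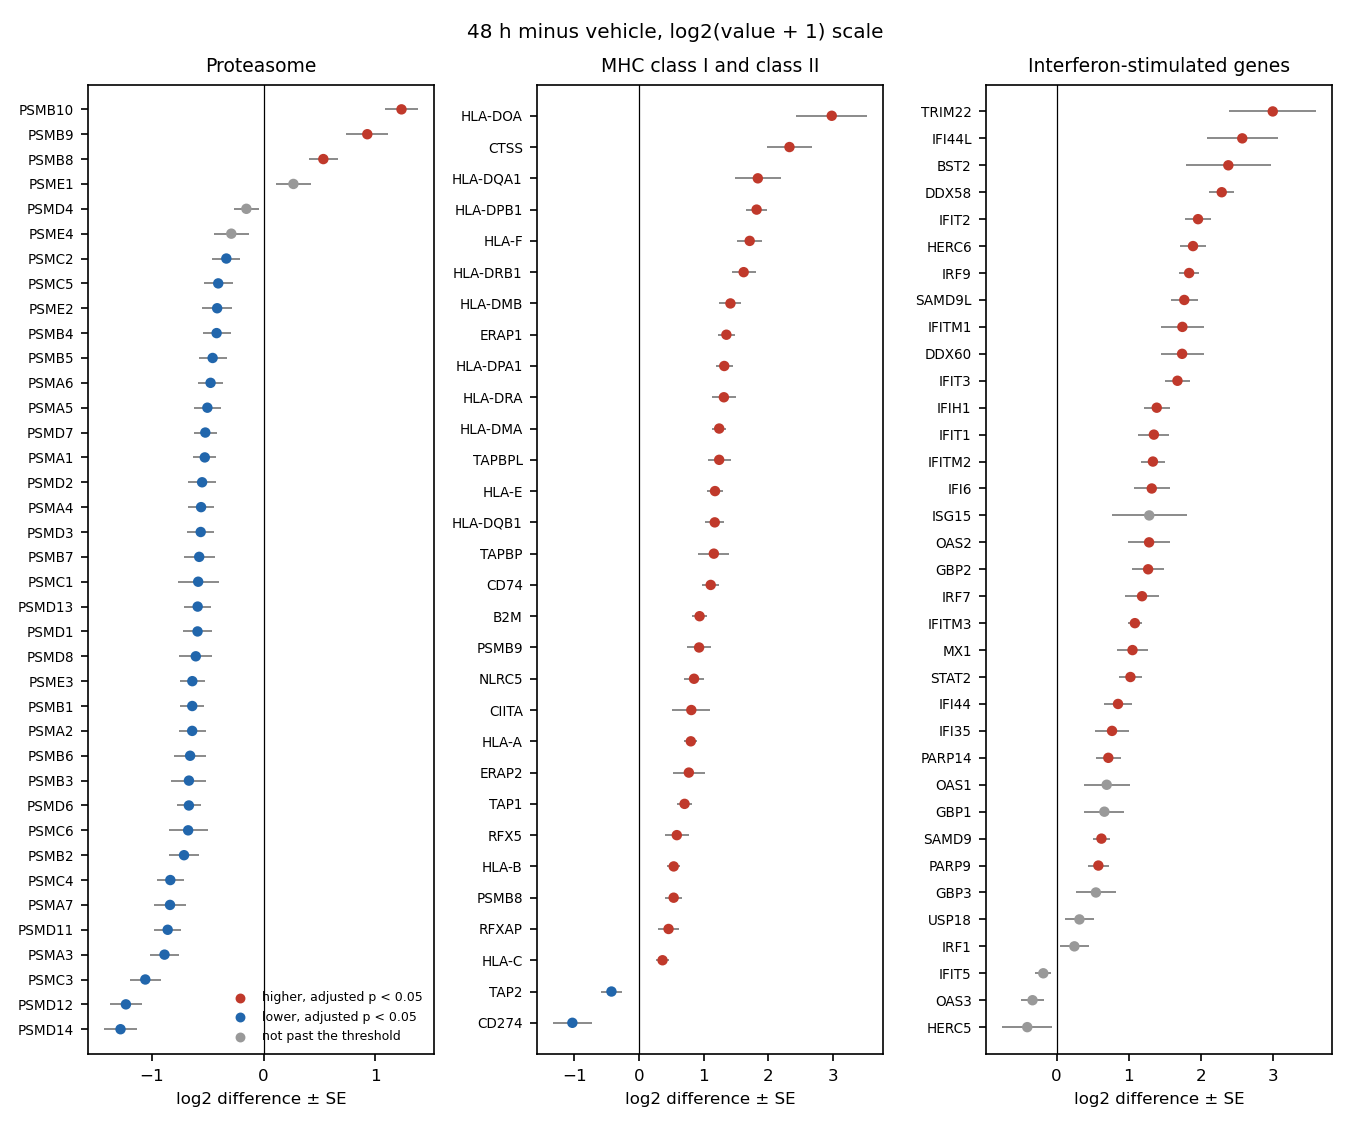
Log2 difference between 48 h and vehicle with its SE (x axis, log2(value + 1) scale) for tested genes of the proteasome, MHC and interferon lists (y axis), coloured by limma call. PSMB8, PSMB9 and PSMB10 sit to the right of 0 among 32 proteasome genes that were lower, and TAP2 and CD274 are the MHC-list genes to the left.

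The interferon-stimulated response element (ISRE), searched as GAAA, any 2 bases and GAAA, is the letter pattern bound by IRF factors. It was in 17 of 27 promoters of the interferon list (63.0%) and in 6 of 13 of the class I list (46.2%). These 6 were B2M, TAP1, HLA-F and TAPBP, which were higher, and TAP2 and CD274, the 2 class I genes that were lower. The ISRE was in 3.07% of all promoters and in 2.42% of those of tested genes. CCAAT, which the NF-Y part of the class II enhanceosome binds, was in 9 of 11 class II promoters (81.8%). It was in 33.0% of all promoters and in 35.4% of those of tested genes. The promoters of IFI44L and HLA-F are shown, with ISRE matches in capitals, as the members of each list with the largest difference among those that hold one.
IFI44L (chr1:78620198-78620447, plus strand): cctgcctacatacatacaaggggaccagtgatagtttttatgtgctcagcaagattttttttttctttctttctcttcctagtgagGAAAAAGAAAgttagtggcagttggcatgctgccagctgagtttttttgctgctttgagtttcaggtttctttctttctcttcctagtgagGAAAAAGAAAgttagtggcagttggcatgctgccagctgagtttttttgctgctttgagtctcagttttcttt
HLA-F (chr6:29723184-29723433, plus strand): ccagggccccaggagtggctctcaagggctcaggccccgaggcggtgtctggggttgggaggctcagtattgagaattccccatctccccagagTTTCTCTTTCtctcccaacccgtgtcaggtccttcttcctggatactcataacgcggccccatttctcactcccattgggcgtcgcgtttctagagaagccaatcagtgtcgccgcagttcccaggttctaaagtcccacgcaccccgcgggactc
The matches of IFI44L begin 164 and 73 bases before the start, and the stretches around them repeat one another. The match of HLA-F begins 156 bases before the start and reads on the opposite strand. IFI44L had 3.15, 7.59 and 6.59 in vehicle and 47.97, 47.5 and 23.2 at 48 h (log2 difference 2.58 ± 0.49 SE, limma adjusted p = 0.00149), and HLA-F, a nonclassical class I molecule, 73.5, 95.4 and 63.04 and 261, 251 and 244 (log2 difference 1.71 ± 0.19 SE, limma adjusted p = 4.91e-05).

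Lysosomal genes rose in 24 of 43 tested and fell in 2, with a median of 0.73 against -0.0032 for all genes. Lysosomes are the acid compartments in which cells degrade their contents, and TFEB, TFE3 and the related MITF are known to drive their genes. CTSO, a cathepsin, rose from 27.3, 48.8 and 39.5 to 334, 248 and 229 (log2 difference 2.80 ± 0.26 SE, limma adjusted p = 1.77e-05). CTSD, the aspartic protease of this compartment, rose from 2611, 2591 and 4056 to 4703, 6148 and 6964 (log2 difference 0.96 ± 0.23 SE, limma adjusted p = 0.00486). CTSA, a protective carboxypeptidase, rose from 1709, 2055 and 3274 to 5832, 9721 and 10128 (log2 difference 1.88 ± 0.29 SE, limma adjusted p = 0.000416). The membrane protein LAMP1 rose from 2729.96, 3071 and 3659 to 4802, 5686 and 6581 (log2 difference 0.85 ± 0.19 SE, limma adjusted p = 0.00327). The 2 that fell were CTSL1, from 1441, 1587 and 2138 to 883, 1157 and 1116 (log2 difference -0.70 ± 0.19 SE, limma adjusted p = 0.0101), and NPC1, the lysosomal cholesterol exporter, from 923, 1261 and 1262 to 766, 734 and 741. Cargo receptors of autophagy were not called: SQSTM1 had 8416, 10148 and 21594 and 8421, 13754 and 15081, with vehicle replicate 3 the highest of all. TFEB and TFE3 were not called either. MITF was called higher, from 598, 474 and 331 to 849, 1835 and 1555 (log2 difference 1.56, limma adjusted p = 0.00195). The part of MITF in the lysosomal result was not tested.

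TCACGTG, an E-box of the kind found in TFEB-bound promoters (it contains the common E-box CACGTG), was in 9 of 27 lysosomal promoters (33.3%). It was in 3.39% of all promoters and in 5.26% of those of tested genes. Its match in CTSA is shown in capitals, this being the member with the largest difference among those that hold one.
CTSA (chr20:45891085-45891334, plus strand): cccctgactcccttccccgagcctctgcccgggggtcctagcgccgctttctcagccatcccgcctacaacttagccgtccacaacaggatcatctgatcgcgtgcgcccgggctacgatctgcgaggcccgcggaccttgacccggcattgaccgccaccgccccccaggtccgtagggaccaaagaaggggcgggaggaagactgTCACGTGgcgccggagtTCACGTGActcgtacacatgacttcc
Matches begin 43, 26 and 25 bases before the start, the last 2 being the 2 strands of one palindrome.

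Metabolic genes were more often lower than higher. In glycolysis and hypoxia 25 of 31 were lower and 1 higher, with a median of -0.73. ENO1, enolase, fell from 41613, 37896 and 43916 to 11823, 15644 and 15797 (log2 difference -1.52 ± 0.14 SE, limma adjusted p = 1.86e-05). PGK1 fell from 9742, 9149.8 and 9538 to 4717, 5317 and 5607 (log2 difference -0.87 ± 0.11 SE, limma adjusted p = 0.000128). HK2, the hexokinase of growing cells, fell from 1863, 1902 and 1485 to 845, 819 and 719. The single higher gene, P4HA2, is a collagen prolyl hydroxylase, and its call was lost without vehicle replicate 1, 48 h replicate 2 or 48 h replicate 3 (limma adjusted p = 0.0915, 0.0598 and 0.0742). In the respiratory chain 11 of 41 were lower (26.8%) and 3 higher (7.32%), against 25.6% and 24.3% of all genes. The lower share was thus near that of all genes. SDHA, at 1254, 1260.3 and 1349 and 1199, 1446 and 1422, and COX4I1, at 4097, 4071 and 5127 and 4096, 5281 and 4766, were not called. PPARGC1A, the coactivator of mitochondrial biogenesis that MITF can induce, rose from 2.10, 3.25 and 4.70 to 8.27, 32.01 and 51.9 (log2 difference 2.58 ± 0.63 SE, limma adjusted p = 0.00588), lowest among the treated in 48 h replicate 1.

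Cholesterol and fatty acid synthesis genes were lower in 18 of 32, with a median of -0.67. Higher calls numbered 0 by limma, edgeR and DESeq2 and 0 at an unadjusted limma p under 0.05, while scaling to totals gave 16 lower and 1 higher. ACSL3, which activates fatty acids, fell from 3989, 6911 and 6616 to 1012, 1467 and 1439.97 (log2 difference -2.14 ± 0.21 SE, limma adjusted p = 2.45e-05). The regulators SREBF1 and SREBF2 were not called. SCD, a desaturase, was the lowest of all in 48 h replicate 1 and the highest in 48 h replicates 2 and 3, at 3211, 9209 and 11283 against 6776, 8103 and 8349.7 in vehicle. Of 33 genes of ATF4 and the unfolded protein response 13 were lower (39.4%) and 2 higher (6.06%), against 25.6% and 24.3% of all genes. Among the lower was MTHFD2, a one-carbon enzyme, from 2281, 1324 and 1511 to 433, 464 and 470.4 (log2 difference -1.86 ± 0.30 SE, limma adjusted p = 0.000505), while DDIT3 and HSPA5 were not called.

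**Figure D3:**
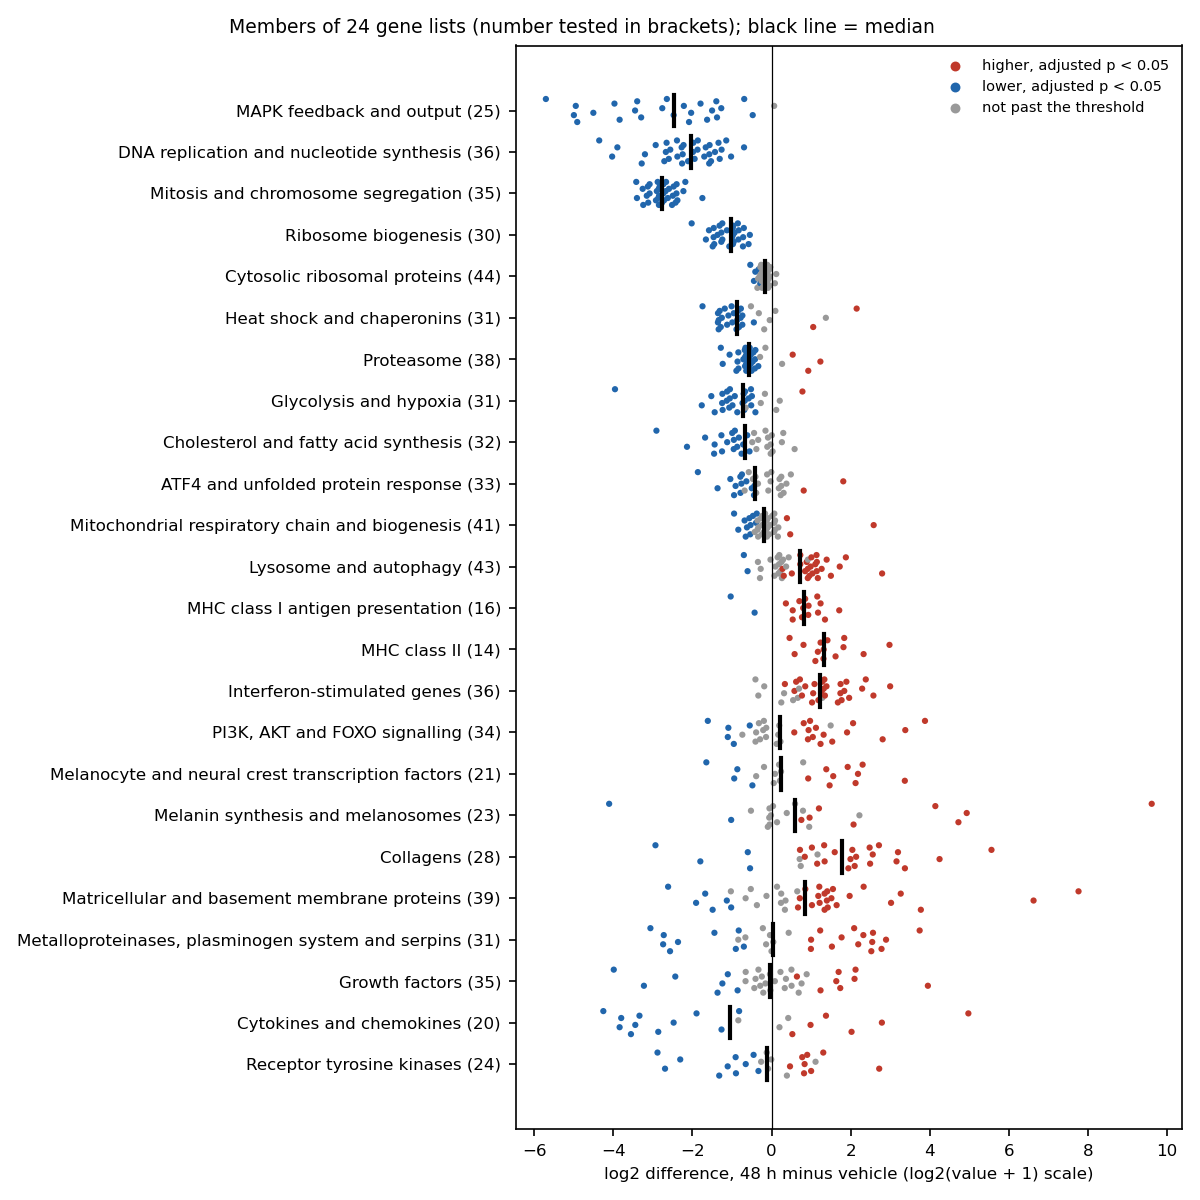
Log2 difference between 48 h and vehicle (x axis, log2(value + 1) scale) for every tested member of 24 lists (y axis, number tested in brackets), 1 point per gene coloured by limma call, with the list's median as a black line. Mitosis genes lie together around -2.77 while collagens spread from -2.93 to 5.56 around 1.77.

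The PI3K and AKT kinases pass on growth signals, and FOXO factors act when these are weak. Of 34 genes in this list 15 were higher (44.1%) and 5 lower (14.7%), against 24.3% and 25.6% of all genes. The lower ones were 3 without 48 h replicate 1, vehicle replicate 2 or vehicle replicate 3. PIK3IP1, an inhibitor of PI3K, rose from 4.20, 7.59 and 2.82 to 83.5, 48.5 and 45.3 (log2 difference 3.38 ± 0.39 SE, limma adjusted p = 6.63e-05). TXNIP, a FOXO and glucose responsive inhibitor of thioredoxin, was 448, 699.6 and 172 in vehicle, 2346, 1319.8 and 416 at 6 h and 12359, 4651 and 3029 at 48 h (log2 difference 3.88 ± 0.69 SE, limma adjusted p = 0.000954). Replicate 3 was the lowest of its group at each of these times. SESN3, a FOXO target that restrains mTORC1, rose from 41.98, 52.1 and 33.9 to 554, 185 and 265 (log2 difference 2.81 ± 0.46 SE, limma adjusted p = 0.000572). FOXO1 was not called at 225, 349 and 619 and 328, 357 and 310.3.

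Regulators of the melanocyte lineage changed in part. SOX10 and PAX3, which set up the lineage, were not called. In all, 9 of 21 transcription factors were higher (42.9%) and 4 lower (19%), against 24.3% and 25.6% of all genes. ETS1 rose from 759.9, 653 and 621 to 2427, 2461 and 2839 (log2 difference 1.93 ± 0.15 SE, limma adjusted p = 5.86e-06). FOXD3, a neural crest factor, rose from 492, 364 and 393 to 1223, 974 and 1263 (log2 difference 1.47 ± 0.18 SE, limma adjusted p = 9.48e-05). SNAI2 rose from 49.3, 99.8 and 82.8 to 284, 429 and 417. TFAP2A, which acts with MITF, rose from 131, 146 and 138 to 290.3, 408 and 405, and its relative TFAP2C fell from 2019, 1856 and 1922 to 555, 670.2 and 627 (log2 difference -1.65 ± 0.16 SE, limma adjusted p = 2.4e-05). ZEB2, a factor of differentiated melanocytes, rose from 491, 459 and 397 to 2367, 1943 and 2235 (log2 difference 2.28 ± 0.13 SE, limma adjusted p = 1.16e-06), and ZEB1, its counterpart in invasive states, fell from 565, 705 and 409 to 305, 203 and 242 (log2 difference -1.14 ± 0.24 SE, limma adjusted p = 0.00246).

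Pigment cell products rose in 8 of 23 cases (34.8%) and fell in 2 (8.70%), unevenly, against 24.3% and 25.6% of all genes. DCT, the tautomerase of the melanin pathway, had 3.15, 2.17 and 2.82 in vehicle, 28.5, 49.8 and 34.3 at 6 h and 3636, 2617 and 2539 at 48 h, the largest rise of the genes tested (log2 difference 9.61 ± 0.25 SE, limma adjusted p = 1.1e-08). TYRP1, a related enzyme, was at 3.15, 2.17 and 9.41 and 8.27, 36.1 and 28.7 (log2 difference 2.07 ± 0.60 SE, limma adjusted p = 0.015), groups that overlapped through 48 h replicate 1, and its call was lost without vehicle replicate 2, 48 h replicate 2 or 48 h replicate 3, at limma adjusted p-values of 0.0581, 0.0642 and 0.0563. GPNMB, a melanosome and lysosome glycoprotein, rose from 1459, 2215 and 4259.5 to 37663, 45336 and 44483 (log2 difference 4.14 ± 0.42 SE, limma adjusted p = 2.86e-05), and with a 48 h mean of 42494 it was among the most abundant changed transcripts. CAPN3, a calpain of muscle and melanocytes, rose from 14.7, 10.8 and 18.8 to 324, 587 and 552 (log2 difference 4.94 ± 0.43 SE, limma adjusted p = 1.16e-05). PMEL, the fibril protein of melanosomes, stayed low at 9.45, 14.1 and 10.4 and 27.3, 28.9 and 14.4 and was not called, and OCA2, a melanosome ion channel, fell from 17.8, 47.7 and 62.1 to 1.65, 1.03 and 1.10 (log2 difference -4.11 ± 0.56 SE, limma adjusted p = 0.000177). Among channels and adhesion molecules of neural crest cells 11 of 20 were higher (55%) and 4 lower (20%). S100B, a marker of the same lineage, rose from 522, 547 and 396 to 1437, 1157 and 1148. ALCAM rose from 679, 519.5 and 541 to 3271, 2563 and 3016. CADM1, like ALCAM an adhesion molecule, rose from 839.7, 778 and 557 to 5053, 3207 and 3407 (log2 difference 2.41 ± 0.22 SE, limma adjusted p = 1.35e-05). NES, the intermediate filament of neural progenitors, fell from 2881, 2152 and 1694 to 718, 594 and 587 (log2 difference -1.80 ± 0.23 SE, limma adjusted p = 0.000115). ESRP1, a splicing factor of epithelial cells, rose from 8.40, 5.42 and 9.41 to 194, 445 and 425 (log2 difference 5.28 ± 0.60 SE, limma adjusted p = 5.57e-05), though CDH1 and EPCAM stayed at 0 to 6.62 in the 6 libraries.

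The M-box TCATGTG, one of the E-boxes that MITF binds, was in 3 of 18 promoters of the pigment list (16.7%). It was in 2.55% of all promoters and in 1.45% of those of tested genes. GPNMB, shown as the called member with the largest difference among those that hold it, has it 2 times, in capitals, 123 and 62 bases before the start, each on the opposite strand.
GPNMB (chr7:23246525-23246774, plus strand): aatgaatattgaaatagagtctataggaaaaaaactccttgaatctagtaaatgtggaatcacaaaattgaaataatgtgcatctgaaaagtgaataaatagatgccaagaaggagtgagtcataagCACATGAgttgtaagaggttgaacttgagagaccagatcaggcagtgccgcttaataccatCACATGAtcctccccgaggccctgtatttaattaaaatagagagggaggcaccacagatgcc

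Matrix genes were more often higher than lower. Of 28 collagens tested 21 were higher and 4 lower, with a median of 1.77, and of 39 matricellular and basement membrane genes 22 were higher and 6 lower, with a median of 0.85. COL16A1, a fibril-associated collagen, rose from 416, 279.8 and 318 to 6946, 2634 and 2267 (log2 difference 3.37 ± 0.35 SE, limma adjusted p = 3.11e-05), with 48 h replicate 1 well above the other two. COL9A2, a cartilage collagen chain, rose from 88.2, 92.2 and 91.3 to 825, 504 and 521 (log2 difference 2.72 ± 0.23 SE, limma adjusted p = 1.1e-05). COL5A1, which starts collagen fibrils, rose from 127, 238 and 149 to 751, 573 and 838 (log2 difference 2.10 ± 0.25 SE, limma adjusted p = 6.92e-05). The basement membrane pair COL4A1 and COL4A2 went the other way, COL4A2 from 6996, 6638 and 5935 to 4808, 3802 and 4329 (log2 difference -0.60 ± 0.14 SE, limma adjusted p = 0.00485), and the call of COL4A1 (limma adjusted p = 0.0306) was lost in 6 of 17 alternatives, with 0.114 as the highest. COL13A1, a transmembrane collagen, fell from 137, 62.9 and 78.1 to 6.62, 12.4 and 14.4 (log2 difference -2.93 ± 0.41 SE, limma adjusted p = 0.000213). Fibroblasts are a known source of collagens, and their markers moved in both directions. Of 8 fibroblast markers tested, 4 were higher and 2 lower, and all 11 summed to 2655 to 4626 in vehicle and 3049 to 3668 at 48 h, mainly through S100A4, which melanoma cells make as well. LUM, a collagen-binding proteoglycan, rose from 92.4, 93.3 and 95.97 to 178, 221 and 402 (log2 difference 1.41 ± 0.34 SE, limma adjusted p = 0.00523). FAP rose from 32.5, 21.7 and 27.3 to 72.8, 66.1 and 47.5, PDGFRB from 154, 272 and 143 to 331, 341 and 297 and DCN from 10.5, 2.17 and 6.59 to 14.1, 17.6 and 22.1. The call of FAP was lost without vehicle replicate 2 or 48 h replicate 1 (limma adjusted p = 0.055 and 0.0518), that of PDGFRB without vehicle replicate 1 or 3 (0.0534 and 0.0595), and that of DCN without vehicle replicate 2, 48 h replicate 2 or 48 h replicate 3 (0.072, 0.0591 and 0.0817) and with quantile normalisation (0.107). The lower ones were PDGFRA and COL6A3. The call of COL6A3 (limma adjusted p = 0.0337) was lost without vehicle replicate 1, 48 h replicate 1 or 48 h replicate 2 (0.126, 0.0673 and 0.108). COL1A1 and COL3A1, the main fibroblast collagens, were at 8.40 to 20.7 and at 0 to 2.48, and THY1 and DPT at 0 to 1.05. The part of these markers in the collagen result was not tested.

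THBS1, thrombospondin 1, rose from 6724, 1855 and 1548 to 18194, 8772 and 15371 (log2 difference 2.33 ± 0.54 SE, limma adjusted p = 0.00474), highest in replicate 1 of both groups. FBN1, the fibrillin of microfibrils, rose from 631, 714 and 695 to 2011, 1453 and 2065 (log2 difference 1.42 ± 0.17 SE, limma adjusted p = 7.27e-05). SPARC at 11939, 15738 and 19989 and 26091, 16223 and 18543, FN1 at 2535, 1296 and 915 and 938, 793 and 1034 and TNC at 8302, 7810.3 and 3335 and 6377, 1844 and 2169, all abundant matrix proteins, were not called, and each pair of groups overlapped. LOXL4, a collagen cross-linking oxidase, fell from 9238, 12572 and 5763 to 1863, 1389 and 1124 (log2 difference -2.61 ± 0.31 SE, limma adjusted p = 6.67e-05), and of the laminin-332 chains LAMA3 fell and LAMB3 rose. ACTN1, which bundles actin, fell from 4567, 4729 and 4801 to 799, 1057 and 1141 (log2 difference -2.25 ± 0.15 SE, limma adjusted p = 2.98e-06), ACTB from 27973, 23388 and 29273 to 9291, 16078 and 16405, and the smooth muscle actin ACTA2 rose from 35.7, 90.02 and 171 to 237, 381 and 559.9 (log2 difference 2.16 ± 0.60 SE, limma adjusted p = 0.0116).

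Of 31 proteases and inhibitors 14 were higher (45.2%) and 9 lower (29.0%), against 24.3% and 25.6% of all genes. MMP2, a gelatinase, rose from 1697, 2779.9 and 2427 to 9479, 12057 and 12552 (log2 difference 2.32 ± 0.24 SE, limma adjusted p = 3.11e-05). MMP17 rose from 390.4, 382 and 407 to 1403, 1948 and 2139 (log2 difference 2.19 ± 0.21 SE, limma adjusted p = 2.08e-05). MMP19 rose from 125, 170.3 and 156 to 541, 480.2 and 517. CTSK, a collagen-cutting cathepsin, rose from 427, 573 and 517 to 2522, 3195 and 3146 (log2 difference 2.55 ± 0.15 SE, limma adjusted p = 1.48e-06). MMP1, the interstitial collagenase and a known AP-1 target, fell from 44.1, 29.3 and 79.04 to 7.44, 4.13 and 7.73 (log2 difference -2.72 ± 0.43 SE, limma adjusted p = 0.000471). TIMP3, a matrix-bound inhibitor of these enzymes, fell from 19514, 19526 and 20768 to 3452, 3384 and 3262 (log2 difference -2.57 ± 0.12 SE, limma adjusted p = 4.52e-07), with the libraries of each group close together, and ADAMTS1, which cuts proteoglycans, from 566, 480.5 and 406 to 57.9, 49.6 and 62.9 (log2 difference -3.06 ± 0.19 SE, limma adjusted p = 2.03e-06). PLAT, the tissue plasminogen activator, had 1570.2, 1267 and 1302 in vehicle and 1494, 1178 and 1357 at 48 h and was not called. At 6 h it had 623, 406 and 311, under every vehicle and every 48 h library (log2 difference 1.64 ± 0.22 SE, limma adjusted p = 0.000252 for 48 h against 6 h).

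Secreted signals also changed in both directions. FGF1, a broad ligand of FGF receptors, rose from 92.4, 53.1 and 37.6 to 1088, 707 and 942 (log2 difference 3.95 ± 0.29 SE, limma adjusted p = 4.07e-06). EGF rose from 18.9, 21.7 and 20.7 to 71.1, 84.7 and 124 (log2 difference 2.10 ± 0.29 SE, limma adjusted p = 0.000181). TGFA, another ligand of the EGF receptor, fell from 3511, 5966 and 5965 to 552, 476 and 578 (log2 difference -3.23 ± 0.29 SE, limma adjusted p = 1.31e-05). NRG1, the ligand of ERBB3, fell from 48.3, 46.6 and 73.4 to 9.92, 5.16 and 15.5 (log2 difference -2.43 ± 0.47 SE, limma adjusted p = 0.00166). HGF, the ligand of MET, had 71 reads over the vehicle libraries and 2 at 48 h, a ratio of 37.3 with a 95% counting interval of 9.94 to 314. In all 8 of 35 growth factors were higher and 7 lower, shares near those of all genes, and the count of lower ones was 11 without the filter on low values and 4 with a filter at 50. Of 20 cytokines and chemokines 6 were higher (30%) and 11 lower (55%), against 24.3% and 25.6% of all genes. The lower ones were 7 with a filter at 50. LIF, a cytokine of the IL6 family, fell from 1031, 612 and 931 to 147, 143 and 160.1 (log2 difference -2.47 ± 0.28 SE, limma adjusted p = 5.37e-05). The neutrophil chemokines IL8 and CXCL1 were both lower, IL8 from 142, 139 and 151 to 6.62, 14.5 and 7.73. IL24 fell from 2897, 10748 and 11603 to 234, 1494 and 992 (log2 difference -3.34 ± 0.76 SE, limma adjusted p = 0.0042). IL16 rose from 249.8, 121 and 247 to 436, 517 and 589.7 (log2 difference 1.38 ± 0.25 SE, limma adjusted p = 0.00122). IL6 was under the mean of 10 and was not tested.

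**Figure D4:**
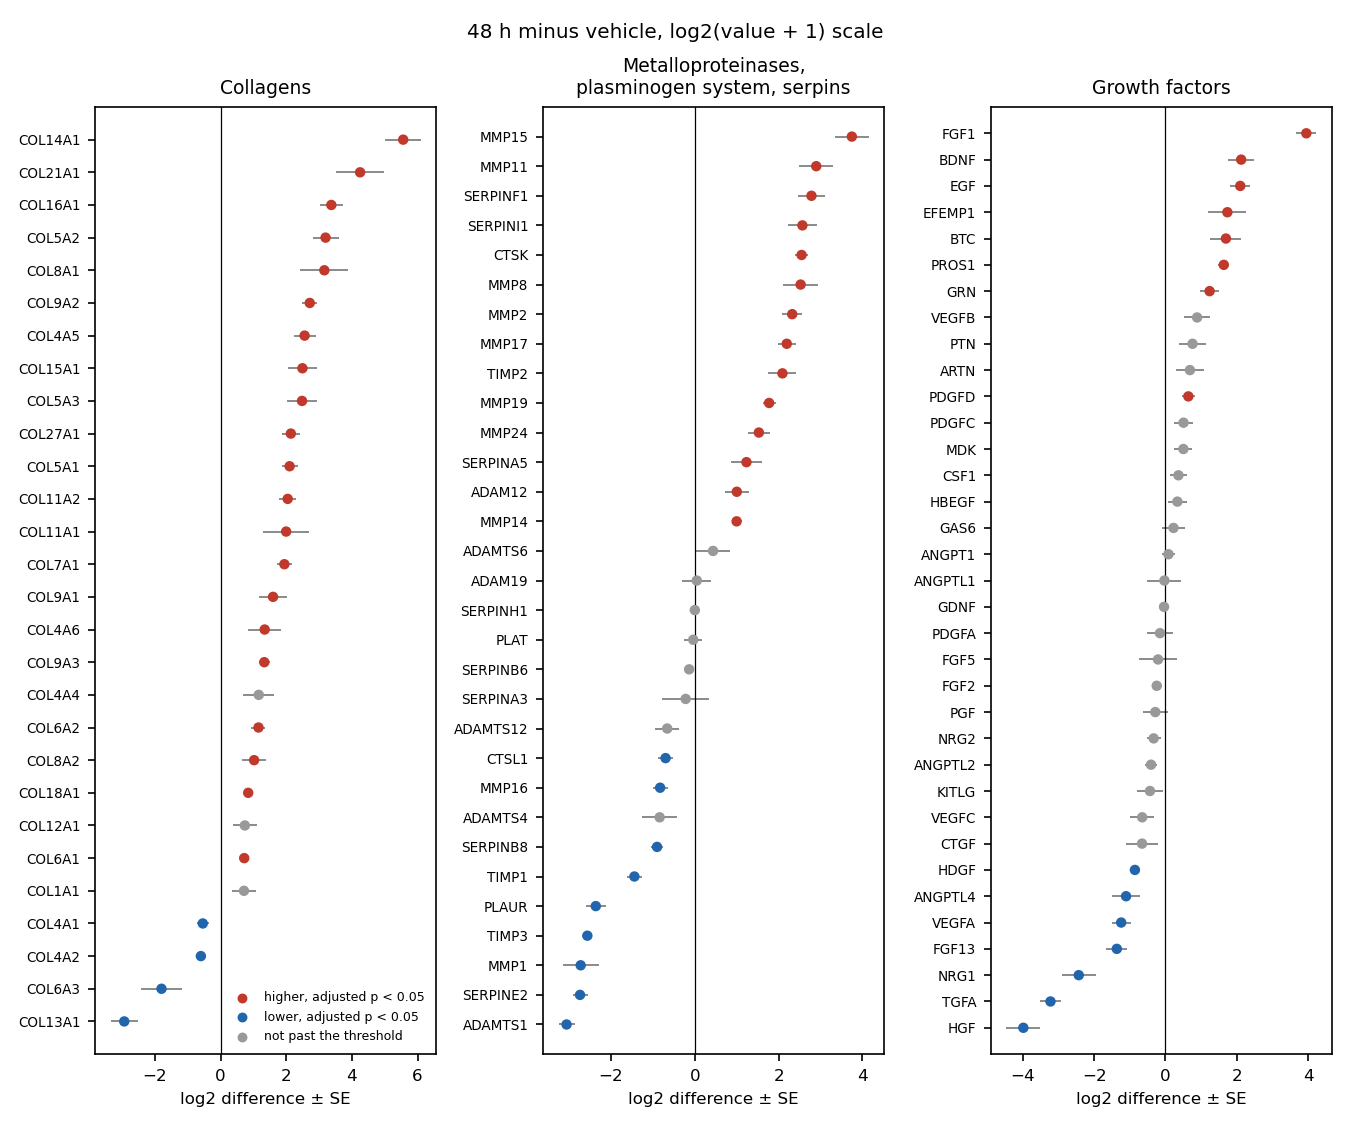
Log2 difference between 48 h and vehicle with its SE (x axis, log2(value + 1) scale) for each tested collagen, protease or inhibitor, and growth factor (y axis), coloured by limma call. Collagens lie mostly to the right of 0, with COL13A1, COL6A3, COL4A1 and COL4A2 to the left, and the other 2 panels spread to both sides.

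In the TGF-beta family, FST, the secreted trap of activin, fell from 15992, 11507 and 11287 to 630.2, 610.3 and 357 (log2 difference -4.63 ± 0.24 SE, limma adjusted p = 7.86e-07), together with the activin subunit gene INHBA, from 1065, 1946 and 1187 to 57.1, 52.7 and 90.6. BMP2 fell from 142, 123 and 147 to 28.9, 26.8 and 41.96 and BMP4 from 71.4, 58.6 and 72.5 to 14.1, 14.5 and 6.63 (log2 difference -2.49 ± 0.39 SE, limma adjusted p = 0.00043), while ID3, a target of BMP signalling, rose from 149, 181 and 167 to 830.4, 700.1 and 962 (log2 difference 2.31 ± 0.19 SE, limma adjusted p = 9.51e-06) and ID1 was not called. TGFB2 rose from 15.7, 8.68 and 18.8 to 128, 119 and 125 (log2 difference 3.08 ± 0.29 SE, limma adjusted p = 1.95e-05), and TGFB1, at 772, 1678 and 1789.6 and 1214, 1949.6 and 1956, was not called. Of 37 members 12 were higher (32.4%) and 6 lower (16.2%), against 24.3% and 25.6% of all genes. DKK3, a secreted protein related to WNT antagonists, rose from 89.2, 133 and 83.7 to 1618, 1152 and 1374 (log2 difference 3.76 ± 0.22 SE, limma adjusted p = 1.4e-06), and SFRP1, a WNT trap, fell from 5093, 8258 and 6922 to 1576, 962 and 1017 (log2 difference -2.52 ± 0.21 SE, limma adjusted p = 8.96e-06). Of 8 proteins that bind insulin-like growth factors 3 were higher and 3 lower, 37.5% each. IGFBP3, the main carrier in blood, fell from 5457, 5657 and 3119 to 87.7, 58.9 and 57.4, 69.8-fold on the ratio of means (log2 difference -6.08 ± 0.29 SE, limma adjusted p = 4.52e-07). IGFBP2 and IGFBP6 were called lower too. The call of IGFBP2 (limma adjusted p = 0.0396) was lost in 6 of 17 alternatives, at up to 0.148. That of IGFBP6 (0.0328) was lost in 5, at up to 0.12. Both were lost without vehicle replicate 3 or without 48 h replicate 2. The lower count was 1 with quantile normalisation or scaling to totals. IGFBP5 and IGFBP7 rose, IGFBP7 from 179, 159 and 235 to 864, 868 and 1070.04 (log2 difference 2.29 ± 0.17 SE, limma adjusted p = 4.48e-06).

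Semaphorins and ephrins steer cell movement, and 12 of the 38 genes tested were higher (31.6%) and 10 lower (26.3%), shares near those of all genes. SEMA3C, a secreted semaphorin, rose from 692, 336 and 350.02 to 14481, 6642 and 9786 (log2 difference 4.50 ± 0.30 SE, limma adjusted p = 2.67e-06) and was at 1848, 2065 and 2043 at 6 h, between the other groups. SEMA3E rose from 111, 149 and 118 to 634, 1011 and 983 (log2 difference 2.77 ± 0.20 SE, limma adjusted p = 4.07e-06). The semaphorin receptor PLXNB3 rose from 1208, 1165 and 1081 to 6514, 4439 and 4723 (log2 difference 2.16 ± 0.15 SE, limma adjusted p = 3.24e-06). Eph receptors fell in part: EPHB2 from 261, 464 and 479 to 67.8, 81.6 and 109 (log2 difference -2.18 ± 0.26 SE, limma adjusted p = 7.37e-05) and EPHA4 from 122, 111 and 139 to 25.6, 28.9 and 34.2. NT5E, the ectoenzyme CD73 that makes adenosine, was lower as well, from 1769.6, 2614 and 2312 to 103, 154 and 126 (log2 difference -4.12 ± 0.18 SE, limma adjusted p = 3.21e-07).

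Of 24 receptor tyrosine kinases 8 were higher (33.3%) and 10 lower (41.7%), against 24.3% and 25.6% of all genes. The higher ones were 5 without vehicle replicate 3. FLT1, a VEGF receptor, rose from 616, 221 and 159.96 to 3204, 1393 and 1422 (log2 difference 2.72 ± 0.45 SE, limma adjusted p = 0.000581), highest in replicate 1 of both groups. ERBB2 rose from 811, 1098 and 843 to 1732, 1735 and 1635 (log2 difference 0.90 ± 0.13 SE, limma adjusted p = 0.000216). The collagen receptor DDR1 rose from 1740.2, 2069 and 2446 to 4029, 3408 and 3658 (log2 difference 0.84 ± 0.15 SE, limma adjusted p = 0.000846). FGFR1 fell from 544, 467 and 412 to 178, 246 and 237 (log2 difference -1.11 ± 0.18 SE, limma adjusted p = 0.000476). FGFR3 fell from 94.5, 84.6 and 64.9 to 14.9, 18.6 and 13.3. IGF1R fell from 1406, 1927 and 1388 to 942, 749.7 and 820.5 (log2 difference -0.90 ± 0.15 SE, limma adjusted p = 0.000614). ALK fell from 134, 183 and 135 to 20.7, 26.8 and 19.9 (log2 difference -2.69 ± 0.25 SE, limma adjusted p = 1.55e-05). EGFR, at 90.3, 98.7 and 84.7 and 59.5, 79.5 and 91.7, and NGFR, at 607, 106 and 193 and 791, 335 and 480.4, overlapped between the groups and were not called.

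In the BCL2 family, which decides on cell death at the mitochondrion, 4 of 16 were higher and 4 lower, near the shares of all genes. BMF had the largest difference of the family (log2 difference 3.34, limma adjusted p = 3.27e-06), and its call held in all 17 alternatives. PMAIP1, the BH3-only protein NOXA, fell from 269, 221 and 258 to 33.1, 42.3 and 59.6 (log2 difference -2.48 ± 0.30 SE, limma adjusted p = 7.99e-05). MCL1, the survival protein that NOXA binds, fell from 8907, 7166 and 6831 to 4273, 3348 and 3513 (log2 difference -1.04 ± 0.14 SE, limma adjusted p = 0.000152). BCL2L11, which encodes BIM, went from 157, 207 and 167 to 347, 299 and 253 (log2 difference 0.75 ± 0.23 SE, limma adjusted p = 0.0179), a call that was lost without vehicle replicate 1, vehicle replicate 3 or 48 h replicate 1, at up to 0.0629. BCL2 and BCL2A1 were not called. The count of higher members was 2 without vehicle replicate 1 or without 48 h replicate 2, and 7 with the replicate number as a block.

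**Figure D5:**
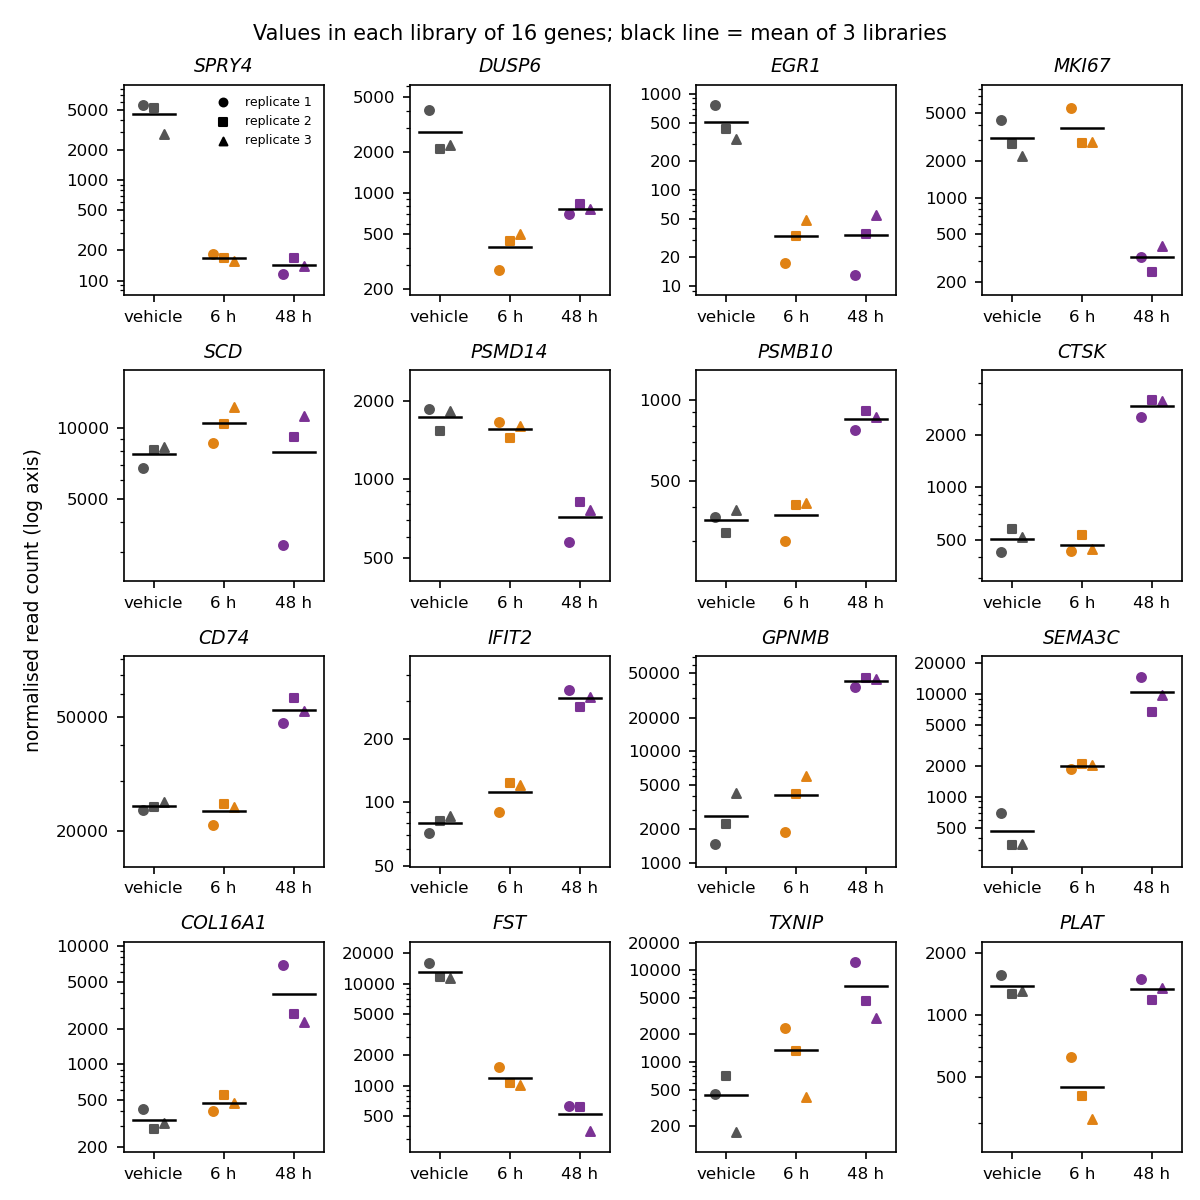
Normalised counts of 16 genes (y axis, log scale, its range set per gene) in each of the 3 vehicle, 6 h and 48 h libraries (x axis), with symbols for the replicate number and a black line for the mean. DUSP6 lies between its 6 h and vehicle levels at 48 h, PLAT is low at 6 h alone, and 48 h replicate 1 is the low library for SCD and the high one for COL16A1 and TXNIP.

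Between 6 h and 48 h of drug, 5427 of the 13816 genes differed (39.3%), by a test that shares the 48 h libraries with the comparison above. At 6 h CD74 had 21114, 24962 and 24239.8, CTSK 431, 531 and 443 and PSMD14 1664, 1436 and 1596, and each differed between 6 h and 48 h (CD74 log2 difference 1.17 ± 0.13 SE, limma adjusted p = 9.38e-05; CTSK log2 difference 2.65 ± 0.15 SE, limma adjusted p = 4e-06; PSMD14 log2 difference -1.14 ± 0.15 SE, limma adjusted p = 0.000211). FST had 1517, 1064 and 1013 at 6 h, between vehicle and 48 h, and SPRY4, the Sprouty inhibitor, 183, 166 and 155, which overlapped its 48 h values of 116, 169 and 140.2. EDNRB, the endothelin receptor of melanocytes, had 651, 982 and 725 in vehicle, 317, 276 and 269 at 6 h and 1211, 853 and 969.5 at 48 h, and was not called at 48 h against vehicle.

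Colo800 and UACC62, 2 other melanoma lines, were treated for 48 h at 1 µM and not at 0.1 µM, with 2 libraries per group and tables normalised separately, so log2 ratios of means (each + 1) are given side by side and no test was made. In A375, Colo800 and UACC62 in turn the ratio of SEMA3C was 4.48, 1.98 and 2.58, and that of GPNMB 4.01, 1.60 and 2.37. FST had -4.60, -4.00 and -3.39, CCT5 -1.35, -1.03 and -1.35, and KIAA1199 -8.54, -5.87 and -2.80. These 5 genes had the same sign in the 3 lines. Values for CD74 were 1.11, -1.65 and 0.18 and for HLA-DRA 1.30, -1.29 and 0.12, so the class II ratio in Colo800 was negative. TXNIP had 3.92, 2.46 and -0.20, COL14A1 5.77, -0.88 and 0.25, and EDNRB 0.36, 2.93 and 1.87. Of interferon-stimulated genes, DDX58 had 2.29, -0.38 and 0.07, IFIT2 1.96, -0.06 and 1.17, and IRF9 1.84, 0.81 and 0.94.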

How the data were processed

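RNA sequencing of 6 A375 culture libraries, 3 of vehicle and 3 of 48 h vemurafenib, was compared, and 3 libraries of 6 h vemurafenib shared the fit. Each value the authors deposited is a signal, the read count of a gene symbol over the size factor of its library. Named in the submitters' processing notes, with no role stated, are the builds hg19 and mm9 and the tools DESeq 1.18.0, STAR 2.3.0e and HTSeq 0.5.4. Per the labels' protocols the kit was TruSeq RNA version 2, which leaves strand unmarked, so a gene and its antisense partner cannot be told apart. Within a library the values are multiples of 1 step, and division by it gave whole reads for 100% of values within 0.1. The 9 libraries held 9633599 to 12657149 reads. Deeper libraries have smaller counting error, and intervals cover counting error only.

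With limma 3.58.1 in R 4.3.3, log2(value + 1) of genes with a mean of at least 10 over the 9 libraries was fitted with a mean-variance trend and the 3 groups as terms. P-values are two-sided and were adjusted by Benjamini-Hochberg over 13816 genes, with a threshold of 0.05. Each SE is that of the fit. Libraries of 1 number at 6 h and 48 h correlated in their deviations from the group means at 0.436, 0.197 and 0.41. Between 6 h replicate 3 and 48 h replicate 2 the value was 0.211. By the data the numbers thus pair these libraries in part only, and the labels state no pairing. Vehicle and 6 h libraries of 1 number correlated at 0.567, 0.31 and 0.566. Every SE and p-value printed for 48 h against 6 h is from the fit without a replicate block. Replicates differed by more than sampling noise and each was counted as 1 sample. Values of Colo800 and UACC62 come from deposited signal tables of the same kind. The members and 54 gene lists (1468 entries) were chosen with earlier results of these data known. Named genes are the 15 largest differences in each direction with a mean of at least 50 and groups that do not overlap, up to 3 genes per list and direction, and the leading genes of each list. Some genes that the rule takes are not reported here. PSMB5, PSMB6, PSMB7, IFI44L, CTSA, MLANA, TYR, PTPRC and others given as markers or in lists of names lie outside that rule and were chosen after their values were seen, as were the named genes printed here from those the rule takes. Motif pairs shown are 8 of those looked at; others were set aside after their counts were seen. The script was tested on simulated data.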

Additional observations from a re-analysis of the deposited data

How the results depend on the processing

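Alternatives to the limma fit were a filter at a mean of 50 or none, a pseudocount of 0.5 or of 5, quantile normalisation, scaling to library totals, TMM factors, a fit of the 2 groups alone, edgeR 4.0.16 with its quasi-likelihood test and DESeq2 1.42.0 on the recovered reads, and leaving out each library. Called genes numbered 5975 to 7388 across these apart from the fit without 48 h replicate 3, at 5869, against 6903, and 0 calls turned direction. Scaling to totals gave 4218 higher and 2870 lower, and DESeq2 3539 and 3617. Of 378 named genes that were called, 334 stayed called in every alternative and 44 did not; 21 uncalled ones were called somewhere. Between 0 and 13 of 108 list counts moved by over 1.5 times per setting. The replicate number as a block gave 8307 calls, 4099 higher and 4208 lower, and ended none of the 6903 calls. Vehicle and 48 h libraries of 1 number correlated in their deviations at 0.402, 0.028 and 0.32, not over 0.1 in every pair, and vehicle replicate 3 correlated better with 48 h replicate 2 (0.365), so these were not taken as pairs. The block calls BCL2A1 (limma adjusted p = 0.0385), ISG15 (0.000918), NGFR (0.0058), PMEL (0.0466), TFEB (0.0399), TGFB1 (0.0261) and TNC (0.00455), which are given as not called. For 48 h against 6 h the block gave 6903 calls against 5427 and ended none. The filter left out genes of low counts, and 19242 genes were tested without it. At 3 reads or fewer over a group, depth limits a ratio to a bound or a wide counting interval.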

Other observations

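Genes of the aryl hydrocarbon receptor, which senses small aromatic molecules, and of retinoid metabolism changed in both directions. Of 17 tested, 7 were higher (41.2%) and 2 lower (11.8%), against 24.3% and 25.6% of all genes. CYP1B1, a target of that receptor, had normalised counts of 101, 137 and 126 in vehicle and 599.6, 405 and 741 at 48 h (log2 difference 2.22 ± 0.29 SE, limma adjusted p = 0.000142), and AHRR, its repressor, 779, 764 and 571 and 1867, 1722 and 1537 (log2 difference 1.29 ± 0.15 SE, limma adjusted p = 7.4e-05). Both sets of treated libraries lay above all vehicle libraries, while AHR itself, at 1346, 1384 and 1183 and 1337, 1186 and 1274, was not called. RARB, the retinoic acid receptor beta gene, rose from 16.8, 24.9 and 19.8 to 255, 177 and 171 (log2 difference 3.22 ± 0.24 SE, limma adjusted p = 5.35e-06). ALDH1A3, which makes retinoic acid, fell from 20212, 21644 and 12208 to 2386, 2273 and 2493 (log2 difference -2.87 ± 0.23 SE, limma adjusted p = 8.65e-06), and STRA6, a retinol transporter, from 777, 585 and 454 to 361, 196 and 158 (log2 difference -1.40 ± 0.33 SE, limma adjusted p = 0.0051).

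Of 22 ABC transporters tested 7 were higher (31.8%) and 3 lower (13.6%), against 24.3% and 25.6% of all genes. ABCB4, a phospholipid exporter, rose from 105, 134 and 84.7 to 677, 380.01 and 337 (log2 difference 2.05 ± 0.32 SE, limma adjusted p = 0.000419), and ABCC2, a drug and conjugate exporter, from 342, 357 and 494 to 658, 1086 and 1545 (log2 difference 1.40 ± 0.34 SE, limma adjusted p = 0.00596). ABCB1, the multidrug transporter, fell from 81.9, 111 and 108 to 52.9, 57.8 and 60.7 (log2 difference -0.79 ± 0.21 SE, limma adjusted p = 0.0085), without overlap, and ABCG2 from 50.4, 39.05 and 54.6 to 7.44, 20.7 and 28.7 (log2 difference -1.47 ± 0.42 SE, limma adjusted p = 0.0137). KCNN4, a calcium-gated potassium channel, fell from 1741, 1987 and 2249 to 208, 221 and 215 (log2 difference -3.20 ± 0.17 SE, limma adjusted p = 9.51e-07), and KCNMA1, another, from 284, 471 and 393 to 86.01, 101 and 93.9 (log2 difference -1.99 ± 0.20 SE, limma adjusted p = 2.39e-05). Among S100 proteins S100A10 rose from 6373, 3984 and 5723 to 7959, 8785 and 8184 (log2 difference 0.66 ± 0.18 SE, limma adjusted p = 0.00988), and S100A16 fell from 2934, 3990.3 and 5566 to 945, 876 and 873 (log2 difference -2.16 ± 0.22 SE, limma adjusted p = 3.1e-05).

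For some genes a replicate number stood out in both conditions. CDKN1A was highest in replicate 3 of vehicle and of 48 h, at 4268 and 4333, and NGFR was highest in replicate 1 of both, at 607, 106 and 193 in vehicle and 791, 335 and 480.4 at 48 h. The labels do not say what a number marks.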
